A study of Mus musculus with 72 samples.

Results

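The genes described here are 7 genes of the Notch pathway, Jag1, Jag2, Notch1, Notch2, Rbpj, Hes1 and Nrarp, out of 19938 genes measured in mouse bone marrow with acute promyelocytic leukaemia (APL). Each was read from the log2 values of the probe sets that the array annotation gives to 1 gene symbol, and all 7 were found. Rbpj had 2 such probe sets and was represented by the brighter one, and the others had 1 each. Jag1 was selected on its measured levels and RA differences in the transgenic arrays, which were already known, so its transgenic values are a description and carry no test. The other 6 genes were added as its pathway partners.

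Notch receptors are membrane proteins that bind ligands of the Jagged and Delta families on neighbouring cells. Binding leads to cleavage by ADAM proteases and gamma-secretase, and the freed intracellular part enters the nucleus, joins the DNA-binding protein RBPJ and a Mastermind coactivator, and switches on targets such as Hes1 and Nrarp. In blood formation Notch1 is best known for directing progenitors to the T cell lineage, and in myeloid leukaemia the pathway has been described both as active and as silenced. APL arises from fusion proteins that contain RARA, a nuclear receptor, and its ligand retinoic acid (RA) makes the leukaemic promyelocytes differentiate.

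Total RNA of bone marrow was hybridised to 72 Affymetrix Mouse Gene 1.0 ST arrays, 36 from a transgenic and 36 from a viral transduction model. Transgenic leukaemias, all on a background labelled WT, carried PML/RARA (per time point, 6 h and 12 h, 4 arrays without and 8 with RA) or PLZF/RARA (2 without and 4 with RA per time point). PLZF/RARA is the fusion of an APL form known to respond poorly to RA. Viral leukaemias all carried PML/RARA, on a WT or a Pml-/- background, and each background had 4 arrays without and 8 with RA at 6 h but 2 without and 4 with RA at 12 h. This gave 16 groups. The labels give no age, strain, RA dose or route and no promoter for the transgene. They do not say that each array is a different animal or leukaemia, so the tests measure the spread between arrays, which may be technical. The labels number 4 batches: transgenic arrays are in batches 1 and 2, viral arrays in batches 3 and 4, and only 6 h arrays of PML/RARA leukaemias are in batches 2 and 4. Model and batch therefore cannot be told apart, and levels set side by side across models are a description.

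Promyelocyte markers (6 of 6 measured: Mpo, Elane, Prtn3, Ctsg, Ms4a3 and Kit) had a mean log2 level of 11.07 to 12.41 on every array, against array medians over all probe sets of 6.56 to 6.81. The files hold no detection call. Hes1 (5.58 to 6.56 over 72 arrays) and viral Jag1 (5.43 to 6.14) lay at or below the array medians. So did Jag1 in PLZF/RARA arrays (5.63 to 6.34) and Nrarp in viral WT arrays (5.77 to 6.46). Nrarp in transgenic PML/RARA arrays (6.09 to 6.75) and Jag2 in viral arrays (6.06 to 6.97) lay around or below them.

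The promoters are shown to let the members be compared at the sequence level, since some of them moved together with RA. RefSeq promoter windows of build GRCm38.p6 matched 6 of the 7 members, and the 250 bases before the annotated start were used. The 3 promoters below belong to Jag1, to Notch1, the receptor whose RA effects passed the test more often, and to Nrarp, the target that changed, on the strand of the gene, with CG dinucleotides in capitals. They lie at chr2:137116521-137116770 (minus strand) for Jag1, chr2:26503823-26504072 (minus strand) for Notch1 and chr2:25180508-25180757 (plus strand) for Nrarp.
Jag1: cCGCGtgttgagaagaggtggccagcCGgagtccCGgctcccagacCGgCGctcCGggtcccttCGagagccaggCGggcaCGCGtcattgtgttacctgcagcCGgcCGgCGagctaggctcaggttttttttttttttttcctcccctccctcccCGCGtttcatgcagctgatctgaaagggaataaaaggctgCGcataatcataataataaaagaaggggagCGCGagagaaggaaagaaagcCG
Notch1: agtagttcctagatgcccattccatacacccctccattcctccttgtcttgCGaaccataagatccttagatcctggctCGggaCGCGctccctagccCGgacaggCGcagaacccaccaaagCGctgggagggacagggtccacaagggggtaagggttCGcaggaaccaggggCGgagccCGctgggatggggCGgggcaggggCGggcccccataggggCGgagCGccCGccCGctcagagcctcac
Nrarp: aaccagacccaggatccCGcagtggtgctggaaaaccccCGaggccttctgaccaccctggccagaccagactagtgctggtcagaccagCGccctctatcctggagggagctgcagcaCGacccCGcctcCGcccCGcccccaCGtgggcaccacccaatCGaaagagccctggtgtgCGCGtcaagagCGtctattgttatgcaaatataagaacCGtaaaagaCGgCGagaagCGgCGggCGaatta

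All 6 matched members had more CG dinucleotides in these windows than the median of 6 over 32851 promoter windows of 27025 genes. Notch1 had the fewest, 16, followed by Nrarp with 18, Jag1 with 20, the first of the Rbpj windows with 21, its second with 25, Notch2 with 34 and Jag2 with 54. The GC share was 57.2% for Jag1, 66% for Notch1, 61.2% for Nrarp and 87.2% for Jag2, against a median of 52.4%. Jag2 had the most CG dinucleotides and the highest GC share of the windows named here.

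The core site of RBPJ, TGGGAA on either strand, was present in 21.6% of all windows of this length and, among the members, only in those of Rbpj itself. In the first Rbpj window, chr5:53590096-53590345 (plus strand), it began 149 bases before the start on the gene's strand and 65 bases before the start on the other strand, and the second, overlapping window held the latter site 205 bases before its own start. The first window is printed with both matches in capitals.
Rbpj: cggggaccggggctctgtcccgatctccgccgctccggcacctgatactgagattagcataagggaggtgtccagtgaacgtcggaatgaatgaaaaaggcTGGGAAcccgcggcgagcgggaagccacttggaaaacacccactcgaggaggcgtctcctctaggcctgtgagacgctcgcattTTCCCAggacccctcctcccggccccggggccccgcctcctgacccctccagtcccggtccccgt

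The longer form CGTGGGAA (0.636% of windows) was found in no member window. The unit bound by retinoic acid receptors, AGGTCA on either strand (14% of windows), and direct repeats of it spaced by 2 or by 5 bases (0.00913% of windows each) were also not found in these windows. This says only that these letters are not in the 250 bases searched.

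Jag1 encodes a membrane ligand that activates Notch receptors on adjacent cells. It was high in untreated transgenic PML/RARA marrow, lower after RA there, and low in the other leukaemia types. In transgenic PML/RARA leukaemia at 6 h the 4 untreated arrays had log2 values of 7.39, 7.54, 7.85 and 7.99, and the 8 RA arrays ran from 6.18 over a median of 6.46 to 6.66. At 12 h the untreated arrays had 7.40, 7.61, 7.65 and 7.85, and the RA arrays ran from 6.13 over a median of 6.51 to 6.97. Every RA array lay below every untreated array at both times. The differences between RA and untreated arrays, fitted with limma over the 36 transgenic arrays with batch as a term, were -1.23 ± 0.13 (SE) at 6 h and -1.10 ± 0.13 at 12 h on the log2 scale, 2.34-fold and 2.15-fold lower. Within batch 1 the 6 h difference was -1.18 and within batch 2 it was -1.30, and leaving out any 1 of the 12 arrays gave -1.35 to -1.14 at 6 h and -1.18 to -1.03 at 12 h.

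In transgenic PLZF/RARA leukaemia Jag1 was low with or without RA. The untreated arrays had 5.63 and 6.06 at 6 h and 5.73 and 5.79 at 12 h, and the RA arrays 5.85, 5.88, 6.14 and 6.34 at 6 h and 5.89, 5.98, 6.08 and 6.14 at 12 h. The groups overlapped at 6 h, and at 12 h all 4 RA arrays lay above both untreated arrays. The differences were 0.21 ± 0.18 and 0.26 ± 0.18, opposite in sign to those of PML/RARA leukaemia, although the first ranged from -0.01 to 0.42 when single arrays were left out. The RA effect differed between the fusions by -1.40 ± 0.16 averaged over both times. All PLZF/RARA arrays lay below the array medians for Jag1, at 5.63 to 6.34, so little of a fall could show there. Untreated PML/RARA arrays were 1.84 ± 0.13 above untreated PLZF/RARA arrays, 3.58-fold, and all 8 lay above all 4. This contrast and the RA effects use the same untreated arrays. After RA the fusions overlapped: the lowest PML/RARA array was at 6.18 at 6 h and 6.13 at 12 h, and the highest PLZF/RARA array at 6.34 and 6.14.

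In the viral model, whose arrays are not those that Jag1 was selected on, all 36 arrays lay between 5.43 and 6.14. WT leukaemia at 6 h had untreated values of 5.82, 5.89, 6.01 and 6.11 and RA values from 5.43 over a median of 5.80 to 6.01, a difference of -0.18 ± 0.10 (limma adjusted p = 0.328). At 12 h the untreated arrays had 5.82 and 5.94 and the RA arrays 5.89, 5.90, 5.93 and 6.02, a difference of 0.05 ± 0.14 (limma adjusted p = 0.956). In Pml-/- leukaemia the untreated arrays had 5.79, 5.86, 5.88 and 6.02 at 6 h and the RA arrays ran from 5.45 over 5.89 to 6.14, with a difference of -0.04 ± 0.10 (limma adjusted p = 0.884). The 12 h arrays had 5.70 and 5.96 untreated and 5.64, 5.68, 5.69 and 6.00 with RA, with a difference of -0.07 ± 0.14 (limma adjusted p = 0.904). No RA effect on Jag1 passed the test in the viral model, where the groups overlapped in all 4 comparisons. The backgrounds did not differ in a way the test could tell either: untreated Pml-/- minus WT was -0.06 ± 0.10 (limma adjusted p = 0.803), and the RA effect differed between them by 0.01 ± 0.12 (limma adjusted p = 1). All viral arrays lay below the array medians for Jag1, so little of a fall could show there, which also limits the next contrast. Between the models, which carry the same fusion, the RA difference of transgenic PML/RARA minus viral WT leukaemia was -1.10 ± 0.13.

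Ordered by group mean, the 16 groups ran from untreated transgenic PML/RARA at 6 h (7.70 ± 0.28, SD, n = 4) and 12 h (7.63 ± 0.18, n = 4), to the RA arrays of that leukaemia at 12 h (6.53 ± 0.29, n = 8) and 6 h (6.45 ± 0.13, n = 8). Below them lay the remaining 12 groups between 6.05 and 5.75. From high to low, the upper 6 of these were PLZF/RARA with RA at 6 h and 12 h, viral WT untreated at 6 h, viral WT with RA at 12 h, Pml-/- untreated at 6 h and viral WT untreated at 12 h. The lower 6 were Pml-/- with RA at 6 h, PLZF/RARA untreated at 6 h, Pml-/- untreated at 12 h, viral WT with RA at 6 h, PLZF/RARA untreated at 12 h and Pml-/- with RA at 12 h. Of the 15 pairs of neighbours in this order 1 did not overlap, that between untreated and RA arrays of transgenic PML/RARA leukaemia at 12 h. The order of the 12 low groups has no meaning beyond the spread.

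**Figure D1:**
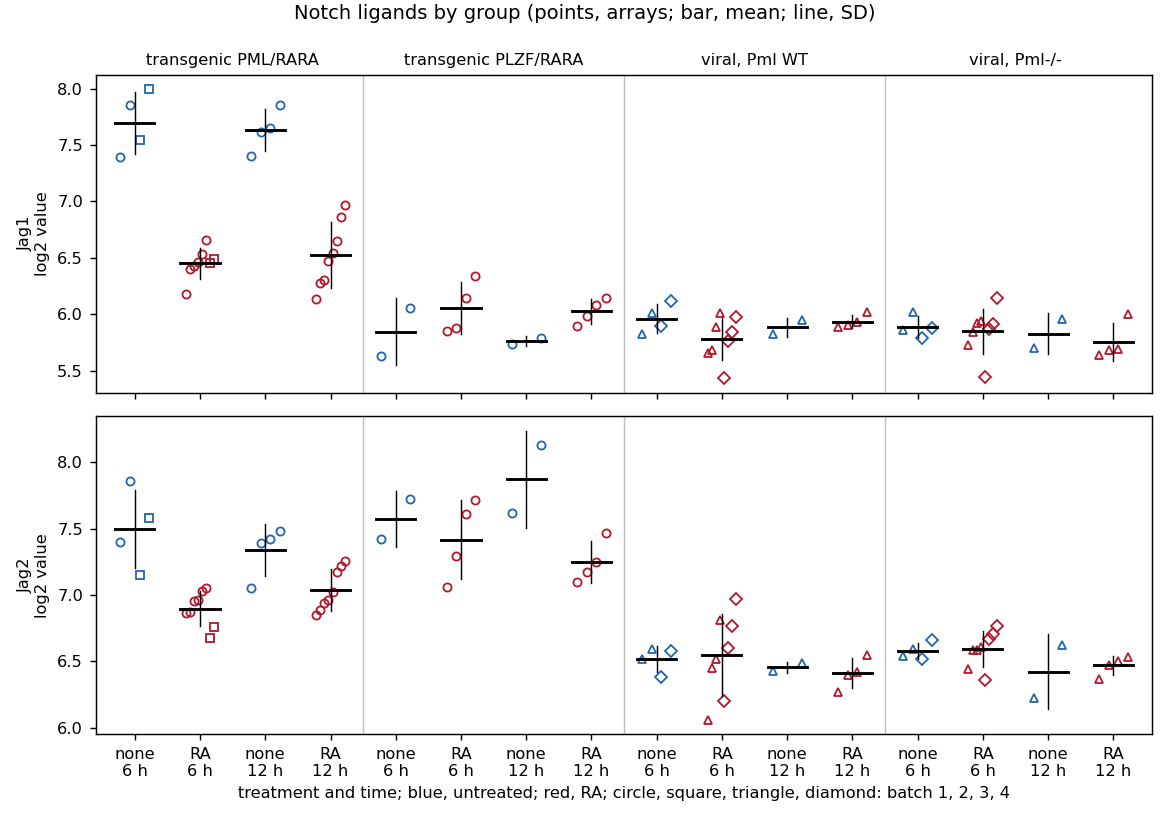
Log2 value of Jag1 (top) and Jag2 (bottom) on each of the 72 arrays in the 16 groups, untreated in blue and RA in red, symbols by batch, points within a group ordered by batch and then by value; the bar is the mean and the line the SD. Untreated transgenic PML/RARA arrays stand alone for Jag1, at 7.39 to 7.99, while Jag2 is lower in the viral than in the transgenic arrays.

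Bone marrow is a mixture, and fewer cells of a type cannot be told apart from less RNA per cell. Markers of other cells moved with the untreated difference between the fusions. All 5 measured erythroid markers were called higher in PML/RARA arrays (mean difference 2.27, mean log2 level 7.92 to 9.50 against 6.03 to 6.48). Also called higher were 5 of 8 T and NK cell (1 was lower), 4 of 8 B cell, 4 of 5 megakaryocyte (1 was lower) and 4 of 9 stroma and endothelium markers. The same held for 4 of 6 promyelocyte (mean 0.41), 4 of 10 mature neutrophil and 4 of 7 monocyte and macrophage markers (1 was lower). Over all genes 25.3% were called in this contrast. Of the mast cell, basophil and eosinophil markers, 4 of 7 were lower (mean -0.85). With RA in transgenic PML/RARA leukaemia, erythroid markers were called higher in 1 of 5 cases at 6 h and 5 of 5 at 12 h (mean 0.75 and 0.92). In these 6 h and 12 h comparisons 14.3% and 21.6% of all genes were called. Stroma and endothelium markers, whose cells also carry Jag1, had a mean change of -0.01 at 6 h (mean level 7.46 to 7.99 untreated and 7.48 to 7.90 with RA; 1 of 9 fell) and of 0.31 at 12 h (7.45 to 8.10 and 7.82 to 8.46; 4 rose and 1 fell). The marker that fell was Pecam1, an adhesion molecule of endothelium and blood cells, by 0.46 ± 0.10 (limma adjusted p = 0.00117) and 0.60 ± 0.10 (limma adjusted p = 1.58e-05). Endothelial Cdh5 (-0.16 ± 0.20 and 0.47 ± 0.20), Kdr (0.11 ± 0.16 and 0.48 ± 0.16) and Emcn (0.18 ± 0.28 and 0.85 ± 0.27) did not fall by the test, and Kdr and Emcn rose at 12 h. With RA in PLZF/RARA leukaemia, where Jag1 differed by 0.21 and 0.26, the stroma and endothelium markers had mean changes of 0.38 and 0.57. Of these 9 markers 1 and 3 rose, where 2.20% and 4.03% of all genes were called. The part of erythroid and other marker changes in the Jag1 differences was not tested.

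Jag2, the second Jagged ligand, also fell with RA in the transgenic model, but from untreated levels that did not differ between the fusions by the test. Here and below a gene is said to rise or fall where its Benjamini-Hochberg adjusted p over all 19938 genes was below 0.05. In PML/RARA leukaemia at 6 h the untreated arrays had 7.15, 7.40, 7.58 and 7.86 and the RA arrays ran from 6.68 over a median of 6.91 to 7.05, with no overlap. Jag2 fell by 0.66 ± 0.12 (limma adjusted p = 9.47e-05), and by 0.67 and 0.65 within batches 1 and 2. At 12 h the untreated arrays had 7.05, 7.39, 7.43 and 7.48 and the RA arrays ran from 6.85 to 7.25, overlapping through 1 untreated array, and the difference of -0.30 ± 0.11 missed the threshold (limma adjusted p = 0.058). It passed without that array, untreated replicate 4 (-0.40), and also without RA replicate 1 (-0.33), 2 (-0.32) or 4 (-0.33). It passed as well with the untreated arrays of both times pooled (-0.42), after a second quantile normalization (-0.34), with only the compared leukaemia types in the fit (-0.30) and with dim genes left out (-0.30).

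In PLZF/RARA leukaemia the 6 h arrays overlapped (7.42 and 7.72 untreated, 7.06, 7.29, 7.61 and 7.71 with RA; difference -0.15 ± 0.16, limma adjusted p = 0.714). At 12 h Jag2 fell by 0.63 ± 0.16 (limma adjusted p = 0.018), from 7.61 and 8.13 to 7.10, 7.18, 7.25 and 7.47. That call rested on few arrays: without untreated replicate 1, the higher one, the difference was -0.37 (limma adjusted p = 0.399), and without RA replicate 1 it was -0.58 (limma adjusted p = 0.0525). It was also lost with only the compared leukaemia types in the fit (-0.63) and with array weights (-0.64). The RA effect on Jag2 did not differ between the fusions by the test (-0.09 ± 0.14, limma adjusted p = 0.808), nor did the untreated level (-0.24 ± 0.12, limma adjusted p = 0.146; -0.37 and past the threshold without untreated PLZF/RARA 12 h replicate 2). Viral arrays lay at 6.06 to 6.97, lower than the 6.68 to 8.13 of the transgenic arrays apart from an overlap between 6.68 and 6.97, and the 4 RA effects there ran from -0.05 to 0.05, none past the test (limma adjusted p from 0.938 to 0.969). The viral values of Jag2 lay around or below the array medians of 6.56 to 6.81. Less of a fall could show there than in transgenic arrays, which limits the contrast between models. The RA effect of transgenic PML/RARA minus that of viral WT leukaemia was -0.47 ± 0.13 (limma adjusted p = 0.0165). This call was lost without transgenic untreated 6 h replicate 4 (-0.42) or viral WT untreated 12 h replicate 2 (-0.46), within the larger batches (-0.41) and within the smaller ones at 6 h (-0.80).

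Notch1 and Notch2 encode the receptors, and both were bright on every array (9.13 to 10.87 and 9.38 to 10.53). RA went with higher values of both in all 8 comparisons of RA with untreated arrays, and 6 of the 8 rises of Notch1 and 3 of the 8 of Notch2 passed the test. In transgenic PML/RARA leukaemia at 6 h Notch1 was at 9.15, 9.30, 9.40 and 9.46 in the untreated arrays and ran from 10.12 over 10.44 to 10.60 in the RA arrays. It rose by 1.10 ± 0.12 (limma adjusted p = 2.2e-08), 2.15-fold, and by 1.13 and 1.06 within batches 1 and 2. At 12 h it was at 9.41, 9.50, 9.64 and 9.78 untreated and 10.14 to 10.42 with RA, a rise of 0.72 ± 0.12 (limma adjusted p = 1.56e-05). The groups did not overlap at either time.

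In PLZF/RARA leukaemia the untreated arrays had 9.97 and 10.06 at 6 h and 9.41 and 9.82 at 12 h, and the RA arrays 10.15, 10.24, 10.75 and 10.87 at 6 h and 10.05, 10.13, 10.55 and 10.65 at 12 h. The RA arrays lay above the untreated ones at both times, and the difference passed the test at 12 h (0.73 ± 0.17, limma adjusted p = 0.00606) but not at 6 h (0.49 ± 0.17, limma adjusted p = 0.125). The 12 h call was lost without untreated replicate 1 (0.52, limma adjusted p = 0.221) and with only the compared leukaemia types in the fit (0.73, limma adjusted p = 0.154), and the 6 h difference passed without RA replicate 3 (0.61, limma adjusted p = 0.0428). The RA effect on Notch1 did not differ between the fusions by the test (0.30 ± 0.14, limma adjusted p = 0.231).

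In viral leukaemia Notch1 rose in both backgrounds at 6 h. WT arrays went from 9.57, 9.60, 9.73 and 9.93 untreated to between 9.92 and 10.63 with RA, a rise of 0.62 ± 0.13 (limma adjusted p = 0.00209) with an overlap of 1 array in each group. Within batch 4 it was 0.56 (limma adjusted p = 0.0198) and within batch 3 it was 0.67 (limma adjusted p = 0.174). Pml-/- arrays went from 9.15, 9.29, 9.31 and 9.49 to between 9.97 and 10.77, a rise of 0.97 ± 0.13 (limma adjusted p = 3.95e-06). At 12 h the Pml-/- arrays had 9.13 and 9.29 untreated and 10.10, 10.12, 10.14 and 10.43 with RA, a rise of 0.98 ± 0.19 (limma adjusted p = 8.07e-04). In WT leukaemia 9.56 and 9.76 stood against 9.81, 9.83, 10.29 and 10.31, and the difference of 0.40 ± 0.19 did not pass (limma adjusted p = 0.262). The difference between the backgrounds in the RA effect itself was 0.47 ± 0.16 and did not pass the test (limma adjusted p = 0.253).

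Group means of Notch1 with RA were 10.06 to 10.50 in the 4 leukaemia types and both times, against 9.21 to 10.01 without RA. Untreated PML/RARA minus PLZF/RARA arrays gave -0.40 ± 0.12 (limma adjusted p = 0.012). This was -0.30 or -0.38, no longer past the threshold, without PLZF/RARA untreated 12 h replicate 2 or 6 h replicate 2. Untreated Pml-/- minus WT arrays gave -0.42 ± 0.13 (limma adjusted p = 0.0202). This was -0.38 or -0.37, no longer past it, without Pml-/- untreated 12 h replicate 1 or WT untreated 12 h replicate 2, and -0.36 and not past it within the larger batch. These untreated contrasts share their arrays with the RA effects above. The RA effect in transgenic PML/RARA minus that in viral WT leukaemia was 0.40 ± 0.14 (limma adjusted p = 0.0921; 0.44 and past the threshold without viral WT RA 12 h replicate 1).

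Notch2 moved less than Notch1. In transgenic PML/RARA leukaemia it rose by 0.52 ± 0.09 at 6 h (limma adjusted p = 9.41e-05), from 9.38, 9.43, 9.56 and 9.57 to between 9.76 and 10.18. At 12 h it rose by 0.46 ± 0.09 (limma adjusted p = 1.59e-04), from 9.45, 9.51, 9.60 and 9.63 to between 9.90 and 10.20. All RA arrays lay above all untreated arrays, and the 6 h rise was 0.56 within batch 1 and 0.46 within batch 2. For PLZF/RARA the differences of 0.27 ± 0.13 and 0.31 ± 0.13 did not pass (limma adjusted p = 0.331 and 0.199), although at 12 h the RA arrays (9.95, 9.98, 10.00 and 10.32) lay above the untreated ones (9.72 and 9.78). In viral WT leukaemia the differences were 0.31 ± 0.12 and 0.36 ± 0.18 (limma adjusted p = 0.124 and 0.276). In Pml-/- leukaemia the 6 h difference of 0.34 ± 0.12 did not pass (limma adjusted p = 0.072; 0.39 and 0.38 and past the threshold without RA replicate 4 or 7). The 12 h rise of 0.57 ± 0.18 (limma adjusted p = 0.0454), from 9.50 and 9.56 to 10.04, 10.10, 10.10 and 10.16, lost its call when any 1 of the 6 arrays was left out (0.54 to 0.60, limma adjusted p from 0.0502 to 0.358) and after a second quantile normalization (0.53).

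The RA effect on Notch2 differed neither between the fusions (0.20 ± 0.11, limma adjusted p = 0.317) nor between the Pml backgrounds (0.12 ± 0.15, limma adjusted p = 1) by the test. Untreated PML/RARA minus PLZF/RARA arrays gave -0.27 ± 0.09 (limma adjusted p = 0.0255), a call lost without PLZF/RARA untreated 6 h replicate 2 (-0.23), 12 h replicate 1 (-0.29) or 2 (-0.26) or PML/RARA untreated 6 h replicate 4 (-0.26). Untreated Pml-/- arrays differed from WT arrays by -0.25 ± 0.12 (limma adjusted p = 0.178).

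**Figure D2:**
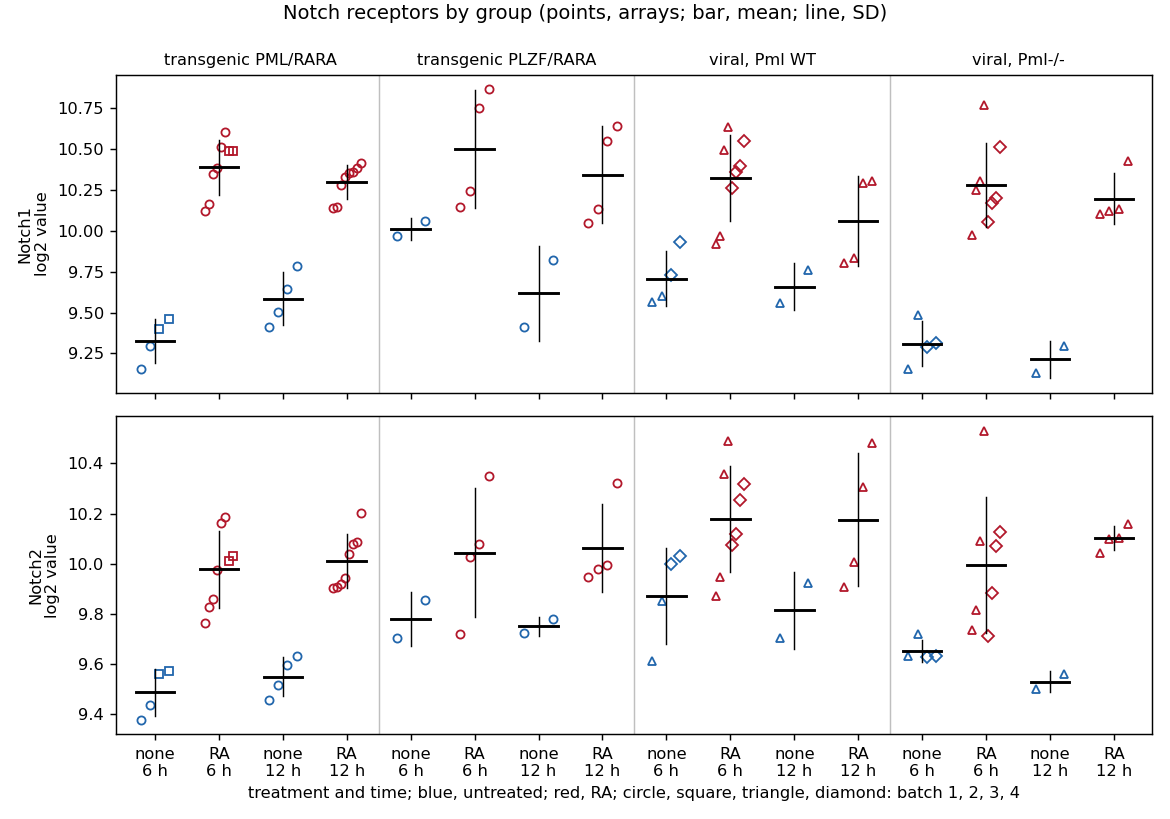
Log2 value of Notch1 (top) and Notch2 (bottom) on each of the 72 arrays in the 16 groups, untreated in blue and RA in red, symbols by batch; the bar is the mean and the line the SD. The RA mean is above the untreated mean in each of the 8 pairs for both receptors, and for Notch1 the untreated Pml-/- arrays, at 9.13 to 9.49, start below the WT arrays, at 9.56 to 9.93.

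Rbpj, the DNA-binding partner through which cleaved receptors act, was bright and nearly level: its 72 arrays lay between 9.65 and 10.36 and its residual SD, 0.11 in transgenic and 0.0913 in viral arrays, was below the medians of 0.149 and 0.153 over all genes. No comparison passed the limma test for Rbpj, and 4 of 13 had an unadjusted p below 0.05. Under other settings some did pass. These were transgenic PML/RARA at 6 h after a second quantile normalization (0.20) or with array weights (0.18), and viral WT at 12 h with pooled untreated arrays (0.28) or array weights (0.21). With array weights viral WT (0.17) and Pml-/- (0.14) at 6 h and the untreated difference between the fusions (-0.19) passed too. The differences between RA and untreated arrays were 0.18 ± 0.07 and -0.02 ± 0.07 in transgenic PML/RARA leukaemia at 6 h and 12 h (limma adjusted p = 0.117 and 0.903), 0.16 ± 0.10 and 0.11 ± 0.10 in PLZF/RARA. They were 0.14 ± 0.06 and 0.21 ± 0.09 in viral WT and 0.08 ± 0.06 and 0.05 ± 0.09 in Pml-/- leukaemia. In viral WT leukaemia at 12 h all 4 RA arrays (10.24, 10.26, 10.35 and 10.36) lay above the untreated arrays (10.06 and 10.12; limma adjusted p = 0.159), and in the other 7 comparisons the groups overlapped. The dimmer Rbpj probe set had a mean of 5.15 against 10.00 for the one used.

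Hes1, a transcriptional repressor and the standard direct target of Notch signalling in many tissues, was dim and did not change by the test in any comparison, and none of its 13 comparisons had an unadjusted p below 0.05 in limma. Group means ran from 5.71 to 6.08. The largest difference between RA and untreated arrays was that of transgenic PML/RARA leukaemia at 6 h, 0.18 ± 0.12 (limma adjusted p = 0.386), where the untreated arrays (5.79, 5.84, 5.92 and 6.04) lay within the range of the RA arrays (5.65 to 6.56). Without a detection call, the arrays do not tell a low Hes1 level from background.

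Nrarp encodes an ankyrin repeat protein that Notch switches on and that in turn limits Notch signalling. It behaved unlike Hes1: it ranged from 5.77 to 8.89, its untreated level differed strongly between fusions and between Pml backgrounds, and with RA it fell in transgenic and in Pml-/- leukaemia. Untreated PML/RARA arrays had 6.29, 6.44, 6.65 and 6.75 at 6 h and 6.35, 6.44, 6.54 and 6.75 at 12 h. Untreated PLZF/RARA arrays had 8.57 and 8.89 at 6 h and 7.93 and 8.25 at 12 h, all 4 above all 8 PML/RARA arrays. The difference, PML/RARA minus PLZF/RARA, was -1.85 ± 0.08 (limma adjusted p = 9.68e-19), 3.60-fold and opposite in sign to that of Jag1. Untreated Pml-/- arrays (6.75, 6.76, 6.87 and 7.22 at 6 h, 7.06 and 7.35 at 12 h) all lay above untreated viral WT arrays (5.77, 5.86, 6.04 and 6.18, and 5.77 and 5.92), by 1.15 ± 0.13 (limma adjusted p = 1.03e-08), 2.22-fold.

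Other marker lists moved with these untreated differences. The fusion contrast carried the marker differences given for Jag1. In the Pml contrast all 10 mature neutrophil markers were lower in Pml-/- arrays (mean -2.16; mean level 9.04 to 9.91 against 11.16 to 11.90). Of 6 promyelocyte markers 3 were lower and 3 higher, 2 of 8 B cell markers were higher (mean 0.91), and 4 of 7 monocyte and macrophage markers were lower (mean -0.66). Of 8 T and NK cell markers 3 were higher and 1 lower, and 2 of 5 megakaryocyte markers were lower (mean -0.62). Over all genes 20.8% were called in the Pml contrast. The part of these marker changes in the Nrarp differences was not tested.

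With RA, Nrarp fell in PLZF/RARA leukaemia at 6 h, to 7.69, 7.87, 7.96 and 8.09, by 0.83 ± 0.12 (limma adjusted p = 4.36e-05), and at 12 h, to 7.39, 7.59, 7.60 and 7.69, by 0.53 ± 0.12 (limma adjusted p = 0.00456). All RA arrays lay below all untreated arrays of the same time, and the 12 h call was lost without untreated replicate 2 (-0.37, limma adjusted p = 0.251) and with only the compared leukaemia types in the fit (-0.53, limma adjusted p = 0.107). In PML/RARA leukaemia it fell by 0.38 ± 0.08 at 12 h (limma adjusted p = 6.64e-04), to between 6.09 and 6.21, again without overlap. At 6 h it fell by 0.29 ± 0.08 (limma adjusted p = 0.0161) to between 6.18 and 6.42, with an overlap. The 6 h fall was 0.41 within batch 1 (limma adjusted p = 0.0144) but 0.11 within batch 2 (limma adjusted p = 0.563), and the call was lost without untreated replicate 3 (-0.23) or 4 (-0.27).

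All PML/RARA arrays lay at 6.09 to 6.75 for Nrarp, within or below the range of the array medians (6.56 to 6.81). Less of a fall could show there than from the untreated PLZF/RARA values, 7.93 to 8.89, which limits the next contrast. The fall was smaller in PML/RARA than in PLZF/RARA leukaemia, with a difference in RA effect of 0.34 ± 0.10 (limma adjusted p = 0.0313). That call was lost within the larger batch (0.28, limma adjusted p = 0.128), with pooled untreated arrays (0.35, limma adjusted p = 0.0979) and when any of 5 arrays was left out: PLZF/RARA untreated 6 h replicate 1 (0.26), untreated 12 h replicate 2 (0.26) or RA 12 h replicate 2 (0.31), or PML/RARA RA 6 h replicate 1 (0.32) or untreated 12 h replicate 2 (0.31).

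In viral Pml-/- leukaemia at 12 h Nrarp fell from 7.06 and 7.35 to 6.03, 6.13, 6.28 and 6.55, by 0.96 ± 0.18 (limma adjusted p = 5.63e-04), 1.94-fold, although without untreated replicate 2 the difference was -0.81 with limma adjusted p = 0.0638. Mature neutrophil markers rose in the same comparison (4 of 10, mean change 0.91), where 6.05% of all genes were called. Their mean level was 9.04 to 9.53 untreated and 9.69 to 10.54 with RA, and their part in the fall of Nrarp was not tested. At 6 h the RA arrays ran from 6.34 to 6.98 and overlapped the untreated ones, with a difference of -0.28 ± 0.13 (limma adjusted p = 0.164). In viral WT leukaemia the differences were 0.06 ± 0.13 and 0.08 ± 0.18 (limma adjusted p = 0.861 and 0.938), and at 6 h they were -0.22 within batch 3 and 0.35 within batch 4, neither past the test. All viral WT arrays lay below the array medians for Nrarp, at 5.77 to 6.46, so little of a fall could show there. This limits the contrasts of RA effects with viral WT leukaemia that follow. The RA effect of Pml-/- minus that of WT leukaemia was -0.69 ± 0.15 (limma adjusted p = 0.0151). Without Pml-/- untreated 12 h replicate 2 (-0.62) or WT untreated 12 h replicate 1 (-0.66) this difference no longer passed, nor did it within the larger batch (-0.61, limma adjusted p = 0.129) or the smaller one at 6 h (-0.51, limma adjusted p = 1). After 12 h of RA the Pml-/- arrays, 6.03 to 6.55 with a mean of 6.25, still lay mostly above the WT arrays, 5.83 to 6.04 with a mean of 5.93. The RA effect of transgenic PML/RARA minus that of viral WT leukaemia was -0.41 ± 0.12 (limma adjusted p = 0.0305). The call was lost within the larger batches (-0.32), within the smaller ones at 6 h (-0.46), with pooled untreated arrays (-0.38) and when any of 8 arrays was left out (-0.44 to -0.37). These arrays were transgenic untreated 6 h replicates 3 and 4 and 12 h replicate 3, viral WT untreated 6 h replicates 1 and 2, untreated 12 h replicates 1 and 2, and RA 12 h replicate 4.

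**Figure D3:**
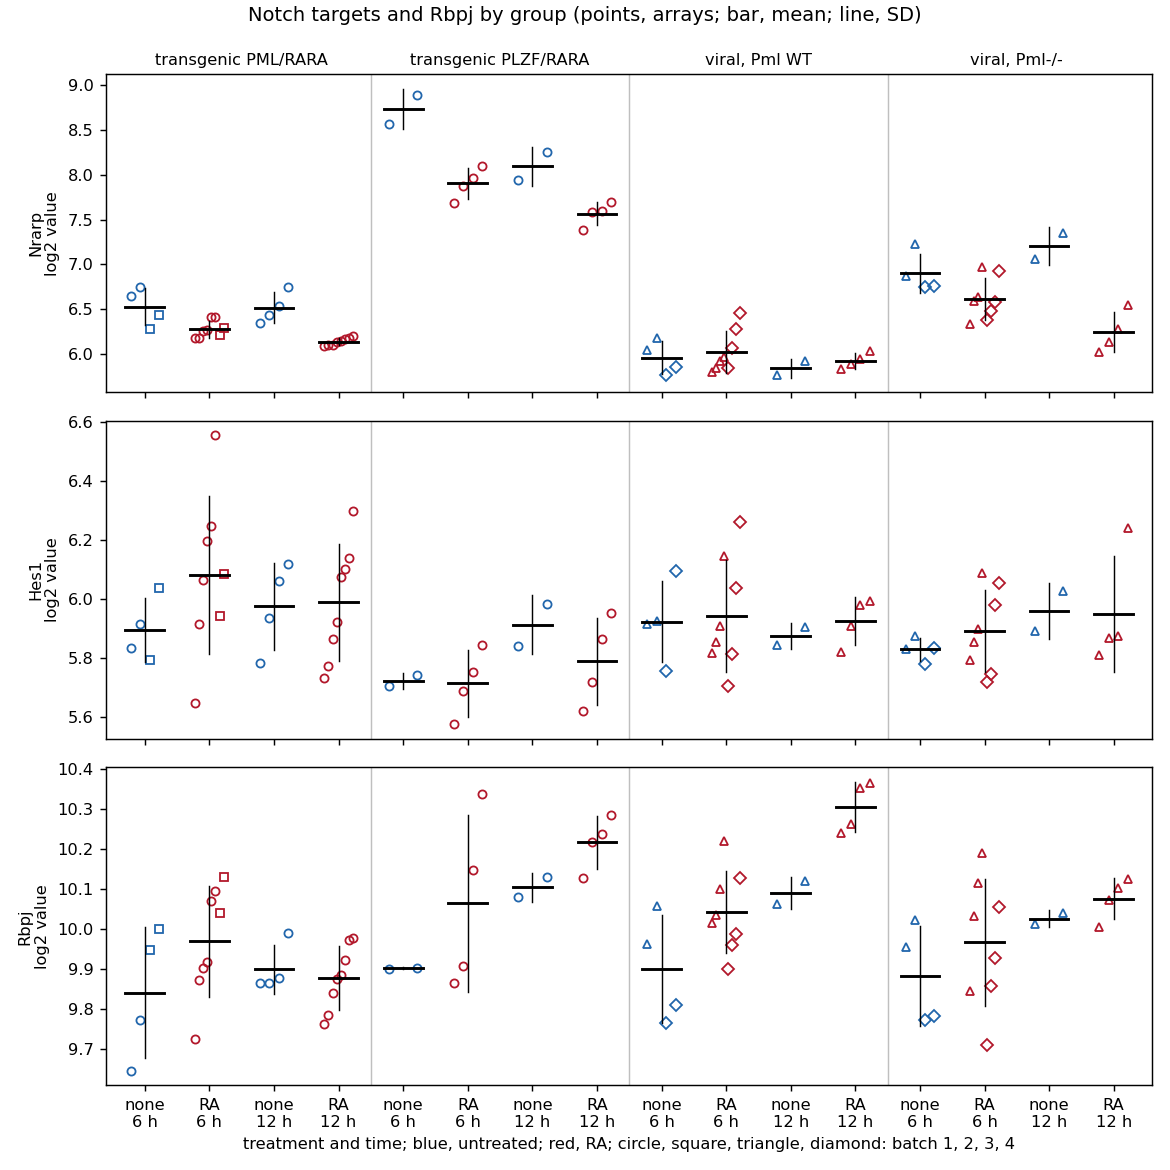
Log2 value of Nrarp, Hes1 and Rbpj (top to bottom, each with its own vertical scale) on each of the 72 arrays in the 16 groups, untreated in blue and RA in red, symbols by batch; the bar is the mean and the line the SD. Nrarp is highest in untreated PLZF/RARA arrays (7.93 to 8.89) and lowest in viral WT arrays (5.77 to 6.46), while group means of Hes1 stay within 5.71 to 6.08.

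Counted over the members, 4 of 6 tested genes were called with RA in transgenic PML/RARA leukaemia at 6 h (2 up, Notch1 and Notch2, and 2 down, Jag2 and Nrarp) and 3 of 6 at 12 h, where 14.3% and 21.6% of all genes were called. In PLZF/RARA leukaemia 1 of 6 (Nrarp) was called at 6 h and 3 of 6 (Notch1 up, Jag2 and Nrarp down) at 12 h, against 2.20% and 4.03% of all genes. In viral WT leukaemia 1 of 7 (Notch1) was called at 6 h and 0 of 7 at 12 h (limma; 3 of 7 had an unadjusted p below 0.05), against 9.88% and 6.10%. In Pml-/- leukaemia 1 of 7 (Notch1) and 3 of 7 (Notch1 and Notch2 up, Nrarp down) were called, against 11.4% and 6.05%. The difference in RA effect was called for 1 of 6 genes between the fusions (7.42% of all genes), for 1 of 7 between the Pml backgrounds (1.13%) and for 2 of 6 between transgenic PML/RARA and viral WT leukaemia (5.50%). Untreated arrays differed for 3 of 6 genes between the fusions (25.3%) and for 2 of 7 between the backgrounds (20.8%). Shares of 6 or 7 genes are coarse, and the members were chosen with earlier results of these data known.

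**Figure D4:**
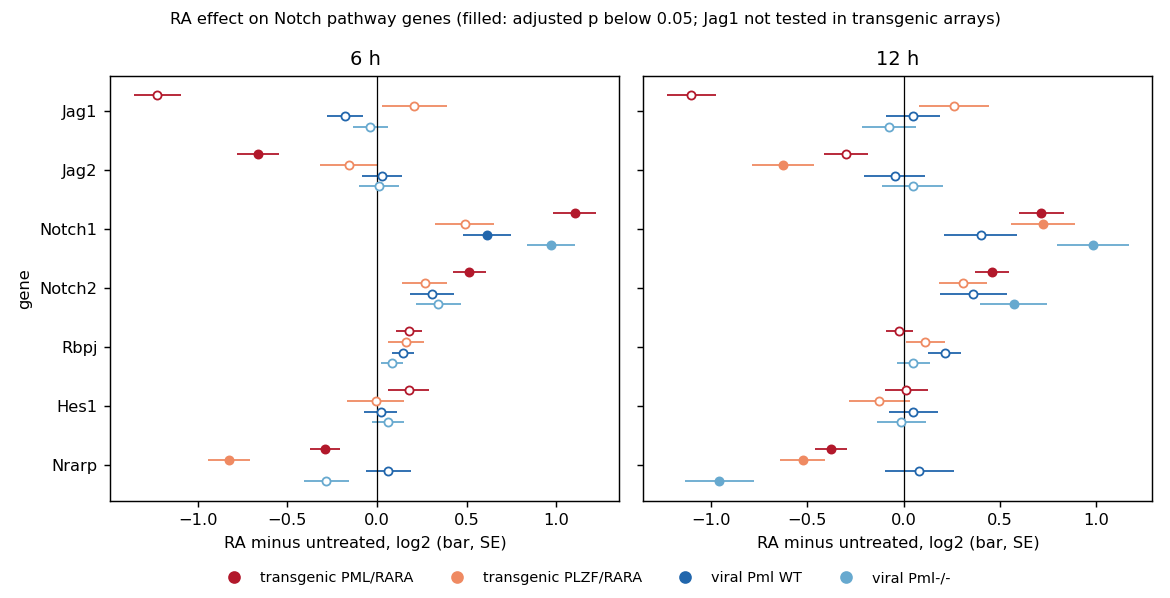
Difference between RA and untreated arrays (log2, horizontal axis; bars are SE) for the 7 genes at 6 h (left) and 12 h (right) in 4 leukaemia types, filled where the adjusted p is below 0.05. Notch1 and Notch2 lie to the right of 0 in all 8 comparisons, and Jag1 lies far to the left, at -1.23 and -1.10, in transgenic PML/RARA leukaemia alone.

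Beyond the 7 members, 61 of 65 listed genes of the pathway were measured: other ligands and receptors, proteases and gamma-secretase, enzymes that glycosylate the receptors, ubiquitin ligases and trafficking proteins, coactivators, corepressors and other targets. With RA, 11 rose and 7 fell in transgenic PML/RARA leukaemia at 6 h and 17 rose and 7 fell at 12 h. This is 29.5% and 39.3% of the list, where 14.3% and 21.6% of all genes were called, and the list's median change was 0.05 at both times against 0.02 and -0.01 over all genes. The lists were chosen with earlier results of these data known, so these shares and those below are a description. In PLZF/RARA leukaemia 2 fell at 6 h and 4 rose and 1 fell at 12 h (3.28% and 8.2%, against 2.20% and 4.03% of all genes). In viral WT leukaemia 13 rose and 2 fell at 6 h and 11 rose and 1 fell at 12 h (24.6% and 19.7%, against 9.88% and 6.10%), and in Pml-/- leukaemia 11 rose and 4 fell and 12 rose and 1 fell (24.6% and 21.3%, against 11.4% and 6.05%). Some counts rested on single arrays. The viral WT count was 9 at 6 h without untreated replicate 4, and 4 or 5 at 12 h without untreated replicate 1 or 2. The Pml-/- count at 12 h was 5 without untreated replicate 2. The PLZF/RARA count at 6 h was 0 without untreated replicate 1 or 2 or RA replicate 1 or 3 and 4 without RA replicate 2, and at 12 h it was 3 or 2 without untreated replicate 1 or 2.

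The largest RA effects in these lists belonged to 2 modifiers of the pathway. Lfng, a fringe glycosyltransferase that modifies Notch receptors and shifts which ligands they answer to, rose in transgenic PML/RARA leukaemia by 1.62 ± 0.14 at 6 h (limma adjusted p = 1.91e-10), from 7.78 to 8.42 untreated to 9.25 to 10.08 with RA. At 12 h it rose by 1.59 ± 0.14 (limma adjusted p = 8.96e-11). In viral WT leukaemia it rose by 2.18 ± 0.14 and 1.67 ± 0.20, and in Pml-/- leukaemia by 1.54 ± 0.14 and 1.47 ± 0.20. In PLZF/RARA leukaemia the differences were 0.36 ± 0.20 and 0.52 ± 0.20 and did not pass (limma adjusted p = 0.408 and 0.147), and the RA effect differed between the fusions by 1.17 ± 0.17 (limma adjusted p = 2.19e-05). In untreated arrays the Lfng difference was -1.56 ± 0.14 for PML/RARA minus PLZF/RARA and -1.94 ± 0.14 for Pml-/- minus WT. PLZF/RARA arrays without RA (9.11 to 9.90) overlapped PML/RARA arrays with RA at 6 h (9.25 to 10.08).

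Neurl3, a ubiquitin ligase of the Neuralized family, rose by 1.91 ± 0.13 and 1.66 ± 0.12 in transgenic PML/RARA leukaemia (limma adjusted p = 4.32e-13 and 1.86e-12), by 1.06 ± 0.17 and 1.06 ± 0.24 in viral WT and by 1.82 ± 0.17 and 1.36 ± 0.24 in Pml-/- leukaemia. The PLZF/RARA arrays with RA were higher by 0.60 ± 0.17 and 0.56 ± 0.17, just short of the threshold (limma adjusted p = 0.0547 and 0.0575). The RA effect differed between the fusions by 1.20 ± 0.15 (limma adjusted p = 2.48e-06). Itch, a ubiquitin ligase that marks Notch for degradation, rose in 7 of 8 comparisons. It rose by 0.67 ± 0.09 and 0.87 ± 0.09 in transgenic PML/RARA, 1.16 ± 0.13 and 1.15 ± 0.18 in viral WT and 0.65 ± 0.13 and 0.88 ± 0.18 in Pml-/- leukaemia. The seventh rise was one of 0.51 ± 0.12 in PLZF/RARA leukaemia at 12 h (limma adjusted p = 0.00816). In transgenic PML/RARA leukaemia 14.3% and 21.6% of all genes were called at 6 h and 12 h. Of the 13 measured genes of this list, 3 rose and 1 fell there at 6 h. At 12 h 4 rose and 1 fell. Dtx3 and Dtx3l, of the Deltex family, were among them, with rises of 1.08 ± 0.17 and 0.57 ± 0.09 at 12 h. Dtx3 also rose in viral WT leukaemia at 12 h (0.57 ± 0.15) and Dtx3l in PLZF/RARA leukaemia at 12 h (0.62 ± 0.13).

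Among 8 measured genes of receptor processing, Aph1b, a gamma-secretase subunit, rose in transgenic PML/RARA leukaemia by 0.63 ± 0.14 and 1.09 ± 0.13 and in Pml-/- leukaemia by 0.55 ± 0.14 and 1.08 ± 0.20. It also rose in viral WT leukaemia by 0.84 ± 0.20 at 12 h (limma adjusted p = 0.0092), and the 6 h difference of 0.32 ± 0.14 did not pass. The 2 ADAM protease genes moved apart. Adam10, which makes the ligand-induced cut, rose by 0.59 ± 0.09 and 0.35 ± 0.09 in transgenic PML/RARA leukaemia (limma adjusted p = 2.14e-05 and 0.00398) and by 0.45 ± 0.11 in viral WT leukaemia at 6 h. Adam17, a related protease, fell by 0.29 ± 0.08 and 0.28 ± 0.07 in transgenic PML/RARA leukaemia and by 0.64 ± 0.11 and 0.62 ± 0.16 in Pml-/- leukaemia. Furin, which cuts the receptor during its maturation, rose in 5 of 8 comparisons, by 0.25 ± 0.07 to 0.47 ± 0.10.

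Of 7 coactivators, 3 rose and 1 fell in transgenic PML/RARA leukaemia at 6 h, where 14.3% of all genes were called. Maml1, the Mastermind protein of the RBPJ complex, rose there by 0.23 ± 0.07 and 0.52 ± 0.07 and in viral WT and Pml-/- leukaemia by 0.32 ± 0.08 to 0.61 ± 0.12. PLZF/RARA arrays with RA differed by -0.01 ± 0.09 and -0.09 ± 0.09, and its RA effect differed between the fusions by 0.42 ± 0.08 (limma adjusted p = 9.7e-04). The acetyltransferase genes Kat2b and Ep300 rose in transgenic PML/RARA leukaemia by 0.51 ± 0.12 and 0.25 ± 0.08 at 6 h, and Kat2a fell by 0.37 ± 0.08. Among 10 measured corepressors 2 rose and 2 fell in the same comparison, against the same 14.3% of all genes. Tle1, a Groucho corepressor, fell by 1.27 ± 0.16 and 1.20 ± 0.15 in transgenic PML/RARA leukaemia (limma adjusted p = 2.55e-07 and 2.07e-07). At 6 h it also fell in viral WT (by 0.61 ± 0.15) and Pml-/- leukaemia (by 0.54 ± 0.15). In transgenic PML/RARA leukaemia it fell more than in PLZF/RARA (difference -0.67 ± 0.19, limma adjusted p = 0.0227) and more than in viral WT leukaemia (difference -0.69 ± 0.18, limma adjusted p = 0.00987). Its relative Tle4 rose by 0.36 ± 0.07 and 0.52 ± 0.07, and Spen, a corepressor that binds RBPJ, by 0.46 ± 0.07 and 0.37 ± 0.07. Both also rose in all 4 viral comparisons, and Spen in PLZF/RARA leukaemia at 12 h.

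Few other targets and ligands passed the test with RA. Of 11 measured targets other than Hes1 and Nrarp, Hes6, a Hes family gene, was the single one that passed the test with RA, in transgenic PML/RARA leukaemia at 12 h, by 0.34 ± 0.09 (limma adjusted p = 0.00323). The untreated fusion contrast called 5 of these 11 higher and 2 lower in PML/RARA arrays, where 25.3% of all genes were called. One of the higher genes was Cd3e, named here after its values were seen, which is also in the T cell marker list (1.38 ± 0.11), and the 2 lower were Hes6 (-0.64 ± 0.09) and Il2ra, the alpha chain of the interleukin-2 receptor (-0.71 ± 0.21). Among 5 other ligands only Dll4, a Delta ligand, rose, in transgenic PML/RARA leukaemia at 12 h by 0.29 ± 0.11 (limma adjusted p = 0.0423). In that comparison 21.6% of all genes were called. Notch3 and Notch4, named as the whole list of other receptors, were called in none of the 13 comparisons (limma, 2 of 26 tests with an unadjusted p below 0.05).

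The difference in RA effect between the fusions was called for 16 of the 61 genes, 11 up and 5 down (26.2% against 7.42% of all genes). This count was 7 without PLZF/RARA untreated 6 h replicate 1 and 9 without replicate 2 of either time. Between the Pml backgrounds it was called for 1 gene, Mib1, a ubiquitin ligase that acts on Notch ligands (0.35, limma adjusted p = 0.0281), named after its values were seen, and leaving out single arrays gave 0 to 2 genes. Untreated arrays differed for 19 genes between the fusions (9 higher and 10 lower in PML/RARA; 31.1% against 25.3% of all genes) and for 17 between the backgrounds (5 higher and 12 lower in Pml-/-; 27.9% against 20.8%), shares near those of all genes. Transgenic PML/RARA and viral WT leukaemia differed in RA effect for 4 genes (6.56% against 5.50%), Neurl3 (0.73 ± 0.17), Tle1, Rfng (-0.35 ± 0.09), a fringe gene, and Numbl (-0.54), a relative of the Notch antagonist Numb that was named after its values were seen.

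**Figure D5:**
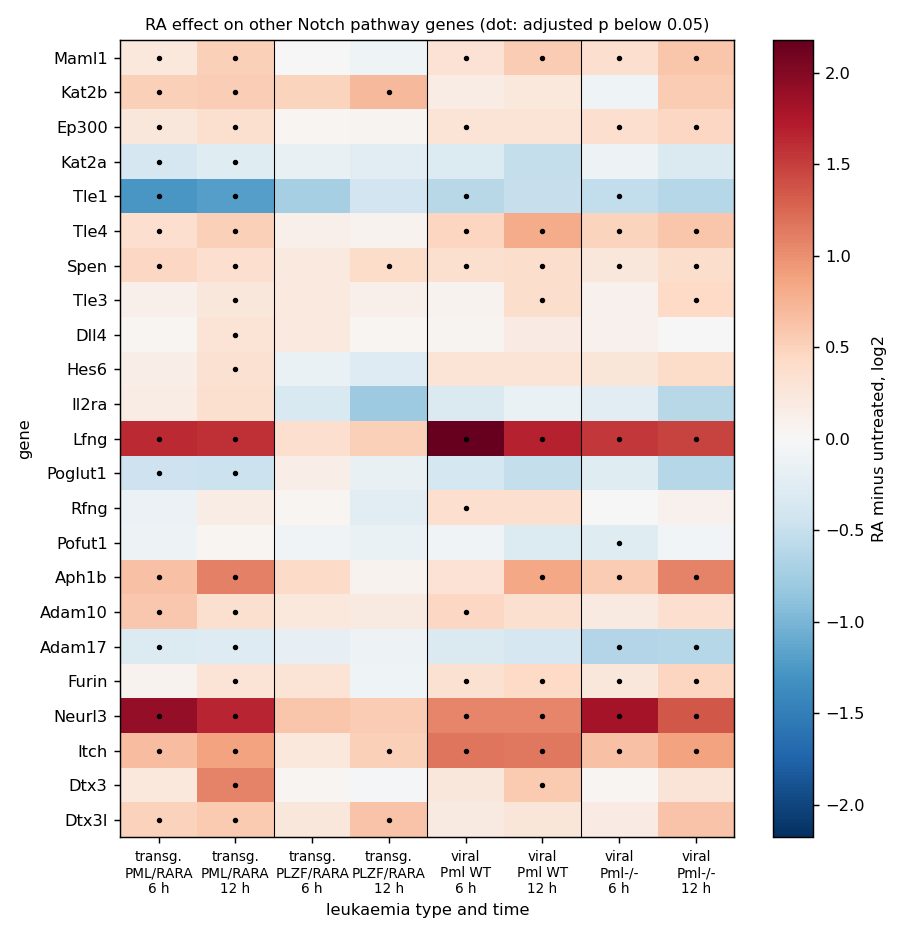
Difference between RA and untreated arrays (log2, colour) for 23 named genes of the wider Notch lists in 4 leukaemia types at 6 h and 12 h; a dot marks an adjusted p below 0.05. Lfng and Neurl3 are the strongest rises, up to 2.18 and 1.91, and Tle1 the strongest fall, down to -1.27.

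Genes with a pattern like that of Jag1 were sought by the Pearson correlation over the 16 group means, after each model's mean was subtracted. The points share the untreated transgenic PML/RARA groups, which dominate the measure, and no test was made. The highest values were those of Mkx, a homeobox gene (0.97), Sox18, a transcription factor gene known from endothelium (0.96), Colec12, a scavenger receptor (0.95), Nectin1, an adhesion molecule (0.94), and Syde2 (0.94). Sox18 had group means of 9.14 and 9.40 in untreated PML/RARA arrays, 8.08 and 8.37 with RA, and 6.86 to 7.04 in PLZF/RARA arrays, and Colec12 had 9.14 and 8.99, 7.82 and 8.05, and 6.47 to 6.98. The lowest were Tbc1d10c (-0.93), Iqgap2 (-0.92), Esr1, an oestrogen receptor (-0.91), Mvd, an enzyme of cholesterol synthesis (-0.90), and Cd93, a membrane glycoprotein of early myeloid and endothelial cells (-0.90). Cd93 had 8.94 and 8.80 in untreated PML/RARA arrays, 10.04 and 10.15 with RA, and 10.55 to 10.94 in PLZF/RARA arrays. Among the other members the correlation with Jag1 was -0.64 for Nrarp, -0.49 for Notch2, -0.45 for Rbpj, -0.44 for Notch1, 0.41 for Hes1 and -0.20 for Jag2.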

How the data were processed

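The authors deposited log2 values for 35556 probe sets on 72 arrays. RMA and the affy package are named in the submitters' processing notes, without versions, and whether batches were corrected is not given in the sources used here. Of the probe sets, 21789 had 1 gene symbol in the platform annotation, 1621 had several and 12146 were not listed there; the brightest per symbol gave 19938 genes. The labels give every array the same replicate number, so replicates are numbered in accession order. The members and the gene lists were chosen with earlier results of these data known.

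limma 3.58.1 (lmFit and eBayes, R 4.3.3) was fitted to each model's 36 arrays with 1 coefficient for each group plus batch as an additive term, and to all 72 arrays for the contrast between models. Tests were two-sided, with Benjamini-Hochberg adjustment over 19938 genes and a threshold of 0.05. Effects averaged over 6 h and 12 h weight both times equally. The number of arrays limits the precision, with 27 residual degrees of freedom per model. Genes of the wider lists were named by rule: up to 4 per list with the largest absolute t statistic among called comparisons. Some genes of the lists, and 10 of the marker genes, were not analysed here. Alternatives tried were no batch term, batch as a random block, single batches, a second quantile normalization, a filter on dim genes, the mean of a gene's probe sets, a trended robust prior, fewer arrays in the fit, pooled untreated arrays, array weights and leaving out each array. The promoters are RefSeq's, build GRCm38.p6.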

Additional observations from a re-analysis of the deposited data

Results flagged for a closer look

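Within groups of 4 to 10 arrays, 6 of 84 groups of member values had an array whose distance to its nearest neighbour was large against the group's range, and chance gives about 1 in 20. Of these, 3 were the same array, replicate 4 of viral Pml-/- leukaemia with RA at 12 h, which was highest for Jag1 (6.00, next 5.69), Notch1 (10.43, next 10.14) and Hes1 (6.24, next 5.87). Notch2 was high in PLZF/RARA replicate 2 with RA at 12 h (10.32, next 10.00) and in untreated Pml-/- replicate 3 at 6 h (9.72, next 9.63). Rbpj was high in untreated transgenic PML/RARA replicate 1 at 12 h (9.99, next 9.88).

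The RA effect differed between leukaemia types by limma's test for Nrarp between PML/RARA and PLZF/RARA (0.34), for Nrarp between Pml-/- and WT (-0.69), and between transgenic PML/RARA and viral WT leukaemia for Jag2 (-0.47) and Nrarp (-0.41).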

How the results depend on the processing

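Over 1218 values of members under other settings, 1175 were counted as unchanged, 18 lost and 25 gained a call, and none that was called changed sign. The transgenic values of Jag1, which carry no test, are among them. Differences that were not called could change sign, such as that of Jag1 with RA in viral WT leukaemia at 12 h (-0.002 to 0.06). Leaving out single arrays gave 1974 values, of which 38 lost and 9 gained a call, in 18 of 119 results. No setting ended a call of Jag2 or Notch1 with RA in transgenic PML/RARA leukaemia at 6 h.

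Within the larger batch of each model, calls were lost for Jag2 between models (-0.41), Notch2 with RA in Pml-/- at 12 h (0.57), Notch1 with RA in viral WT at 6 h (0.67) and between untreated Pml backgrounds (-0.36), and for the differences in Nrarp between fusions (0.28), Pml backgrounds (-0.61) and models (-0.32). Within the smaller batch they were lost for Nrarp with RA in transgenic PML/RARA at 6 h (-0.11) and between Pml backgrounds (-0.51) and models (-0.46), and for Jag2 between models (-0.80). Only the compared leukaemia types in the fit, which leaves fewer arrays, ended the 12 h PLZF/RARA calls of Notch1 (0.73), Nrarp (-0.53) and Jag2 (-0.63) and gave calls for Notch1 between models (0.40) and Jag2 in transgenic PML/RARA at 12 h (-0.30). Pooled untreated arrays ended the Nrarp calls between fusions (0.35) and models (-0.38) and gave calls for Notch1 in PLZF/RARA at 6 h (0.69), Nrarp in Pml-/- at 6 h (-0.38), Notch2 in viral WT (0.32) and Pml-/- (0.38) at 6 h, Jag2 in transgenic PML/RARA at 12 h (-0.42) and Rbpj in viral WT at 12 h (0.28). A second quantile normalization ended the Notch2 call in Pml-/- at 12 h (0.53) and gave calls in transgenic PML/RARA for Jag2 at 12 h (-0.34) and Rbpj at 6 h (0.20), and leaving out dim genes gave that of Jag2 (-0.30). Array weights, whose estimation stopped short of its tolerance in at least 1 fit, gave calls for Jag1 in viral WT at 6 h (-0.26), Notch1 in PLZF/RARA at 6 h (0.63), viral WT at 12 h (0.44) and between models (0.37), and Nrarp in Pml-/- at 6 h (-0.30). They also gave calls for Notch2 in viral WT at 6 h (0.31) and 12 h (0.40), in Pml-/- at 6 h (0.34) and between untreated Pml backgrounds (-0.26), gave the 5 calls of Rbpj listed with its values, and ended that of Jag2 in PLZF/RARA at 12 h (-0.64). The cause was not tested.

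Leaving out 1 array gave for Notch1 0.52 to 0.93 in PLZF/RARA at 12 h, 0.37 to 0.61 at 6 h, 0.35 to 0.45 between models, -0.50 to -0.30 between untreated fusions and -0.47 to -0.37 between untreated Pml backgrounds. For Nrarp it gave 0.26 to 0.42 between fusions, -0.77 to -0.62 between Pml backgrounds, -0.68 to -0.37 in PLZF/RARA at 12 h, -0.44 to -0.37 between models, -0.34 to -0.23 in transgenic PML/RARA at 6 h and -1.11 to -0.81 in Pml-/- at 12 h.

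Counts over the 61 wider Notch genes moved more. With RA in viral WT, 15 at 6 h became 24 (array weights), 3 (larger batch) or 6 (smaller batch), and 12 at 12 h became 21 (array weights) or 24 (pooled untreated arrays). In Pml-/- at 6 h 15 became 24, 2, 7 or 23 (pooled). In PLZF/RARA, 2 at 6 h became 1 to 5 and 5 at 12 h became 0 (only the compared types). The fusion difference fell from 16 to 10 (larger batch), the untreated Pml difference from 17 to 5 (smaller batch), the difference between models went from 4 to 9 (array weights), 2 (larger batch) or 0 (smaller batch), and that between Pml backgrounds from 1 to between 0 and 6.

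No paired analysis was possible because the labels give every array the same replicate number. Untreated groups of 2 arrays limit what these arrays can show. So does the low signal of Hes1 and of Jag1 in viral and PLZF/RARA arrays. The same holds for Jag2 in viral arrays and for Nrarp in viral WT and transgenic PML/RARA arrays.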
